A study of Mus musculus with 15 samples.

Results

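The 34 genes described here encode the transcription factors, cytokine, killing proteins, chemokines and surface receptors that mark type 1 immunity and natural killer (NK) cells in the mouse. They were taken from a list of names and found in the count files by their NCBI Entrez identifiers. All 34 were among the 22797 genes counted, and all 34 passed the filter on low counts that left 15339 genes for testing. The list holds 2 transcription factors, 1 cytokine with 1 cytokine receptor chain, 6 genes of killing, 4 chemokines, 2 integrin chains, 13 lectin-like receptors of the Klr families, 3 receptors of the immunoglobulin type and 2 signalling adaptors.

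PolyA RNA had been sequenced from innate lymphoid cells of group 2 (ILC2) and group 3 (ILC3), which were sorted out of small intestine from female mice. The times of sampling were 4, 10, 16 and 23 h of zeitgeber time (ZT4, ZT10, ZT16 and ZT23), and the suspensions of 6 mice were pooled at each time before staining and sorting. There were 7 ILC2 libraries, 2 at each time except ZT16, which had 1 library and so no replicate check of its own, and 8 ILC3 libraries, 2 at each time. The labels name no treatment or genetic change and give no strain, age, light schedule or sort antibodies. Whether the 2 libraries of a cell type at 1 time stem from separate pools of mice is not stated, so the p-values may measure only technical spread. Batch 1 holds all ILC2 libraries and batch 2 all ILC3 libraries, and the effects of batch and of cell type cannot be told apart.

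Innate lymphoid cells are lymphocytes that lack rearranged antigen receptors. ILC2 depend on GATA3 and secrete type 2 cytokines, ILC3 depend on RORγt and secrete interleukin-22, and NK cells together with type 1 innate lymphoid cells use T-bet and Eomes, secrete interferon-γ and, in the case of NK cells, kill with perforin and granzymes. The Klr receptors of NK cells are encoded side by side in a gene complex, and many activating members signal through adaptors such as DAP12 and the Fc receptor γ chain. In the gut, some ILC3 are known to carry the NK receptor NKp46 and T-bet.

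Library totals ranged from 4016298 to 24794403 counts. Of 12 markers of ILC2, 10 were lower in ILC3, and of 12 markers of ILC3, 10 were higher, so the labelled cell types matched their markers. RNA of other cells was present in both. The summed level of 10 plasma and B cell markers was 18885 to 192618 CPM (counts scaled by library total) in ILC2 libraries and 403 to 4360.2 in ILC3 libraries, and 10 of 10 mast cell and basophil markers were higher in ILC3 (summed level 14.8 to 440.2 CPM in ILC2, 742 to 2976 in ILC3; Cma1 had 0 counts in ILC2). The 13 T cell markers summed to 948 to 1366 CPM in ILC2 and 362 to 2769 in ILC3, and 5 were higher and 6 lower in ILC3. In bulk RNA, fewer cells of a type and less RNA per cell cannot be told apart.

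More of the 34 genes were higher in ILC3 than in ILC2. By edgeR's quasi-likelihood test of the mean of the 4 ILC3 groups against the mean of the 4 ILC2 groups, 19 of the 34 were higher in ILC3 at an adjusted p under 0.05, while 15.1% of all genes tested were. Only Ifng and Prf1, 2 of the 34, were lower in ILC3, where 12% of all genes tested were lower, and 13 were not called. The median log2 fold change, ILC3 over ILC2, was 2.31 over the 34 genes and 0.11 over all genes tested. For 13 of the 34 the lowest ILC3 library stood above the highest ILC2 library, which held for 6.51% of all genes. Prf1 was the 1 gene of the set with every ILC2 library above every ILC3 library, which held for 5.57% of all genes. The genes higher in ILC3 were mostly receptors of the Klr families, the 2 granzymes, Ccl5 and Xcl1, while the factors and the cytokine that define type 1 cells were not higher.

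**Figure D1:**
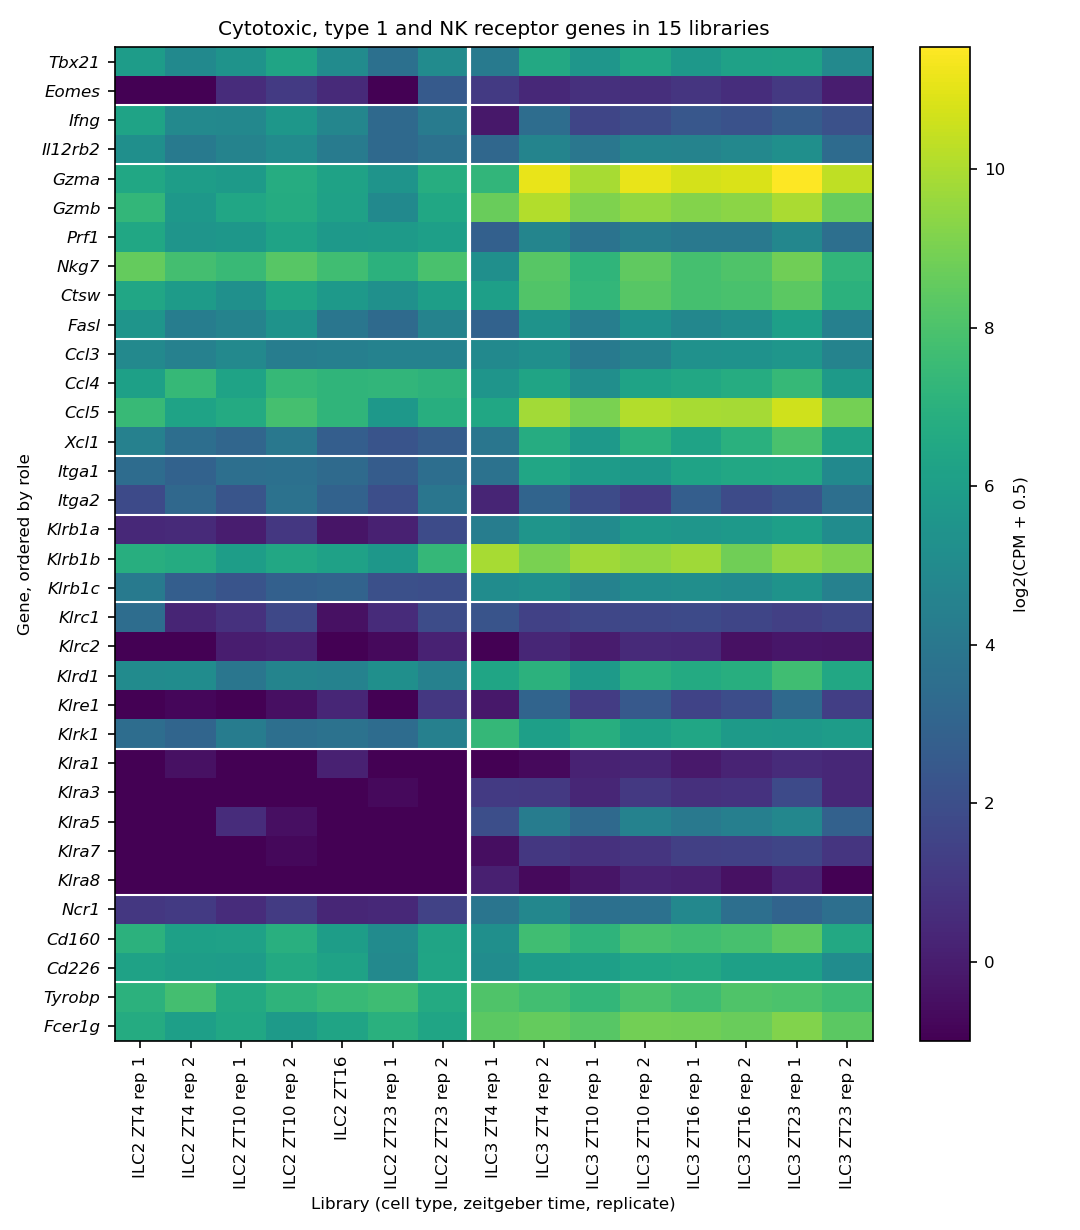
Level of each of the 34 genes (rows, grouped by role) in each of the 15 libraries (columns), as log2(CPM + 0.5) on the colour scale. The 8 ILC3 libraries, right of the white line, are brighter for Gzma, Gzmb, Ccl5, the Klrb1 genes and Klra5, and darker for Ifng and Prf1; ILC3 ZT4 replicate 1 is darker than the other ILC3 libraries for Gzma, Ccl5, Nkg7 and Xcl1.

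**Figure D2:**
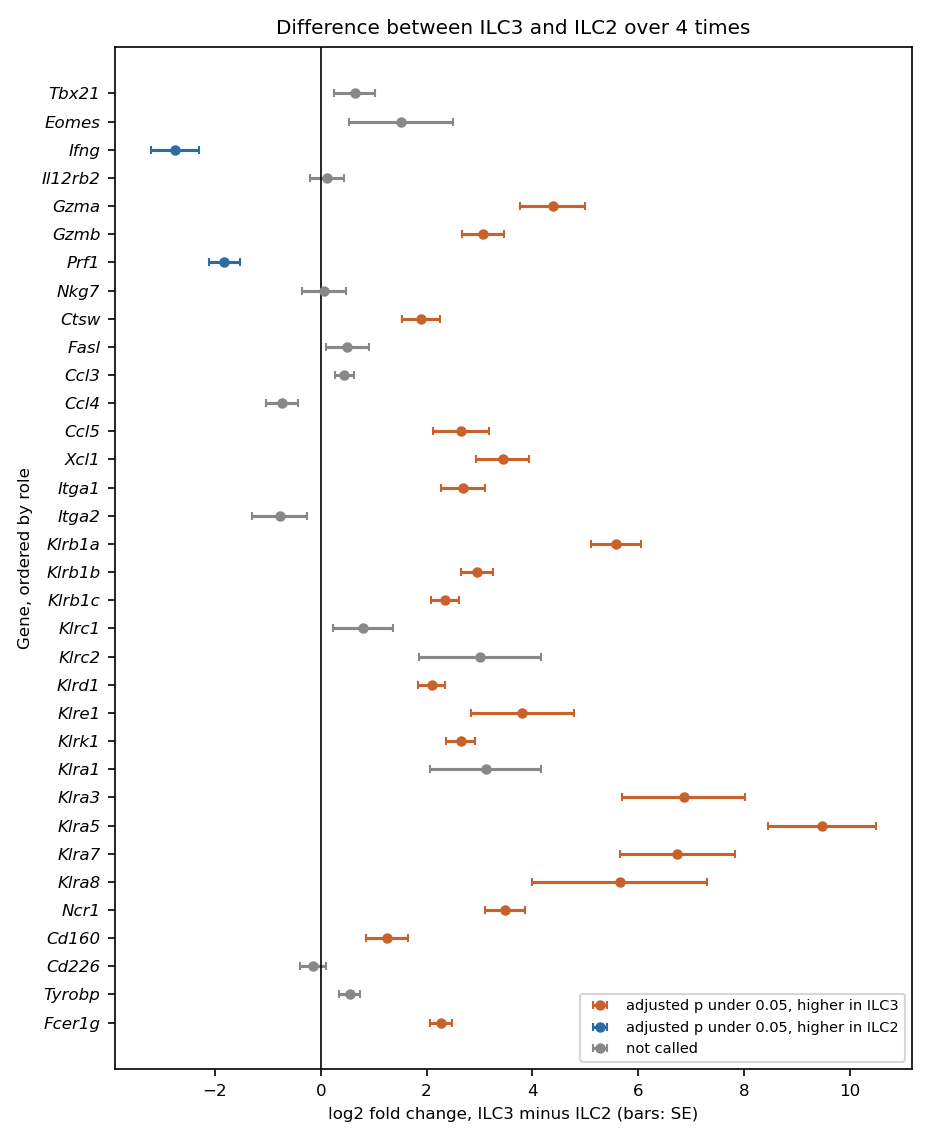
Log2 fold change of each gene between cell types (horizontal axis, ILC3 minus ILC2, over 4 times) with its standard error as a bar. Orange points were higher and blue points lower in ILC3 at an adjusted p under 0.05 in edgeR, and grey points were not called; Klra5 lies farthest to the right at 9.47 and Ifng farthest to the left at -2.76.

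Promoter windows from RefSeq (GRCm38.p6, the same build as mm10; 250 bases before to 50 after a gene's start) were matched for 28 of the 34 genes. The windows were searched on both strands for the core RUNX motif TGTGGTT, bound by transcription factors of the Runx family in lymphocytes, and for the T-box motif AGGTGTGA, bound by T-bet and Eomes; no window of the set held both. The RUNX letters were found for 8 of the 28 genes (28.6%), namely Cd160, Gzma, Gzmb, Klra1, Klre1, Klrk1, Ncr1 and Xcl1, and for 6.09% of all 27025 genes with a window. The T-box letters were found for 1 of the 28, Nkg7 (3.57%), and for 1.48% of all genes. A match is a description of the letters and no measurement of binding. The stretches around the match are shown for 5 genes that were higher in ILC3 and for Nkg7, because they span killing proteins, a chemokine and activating receptors. They are written 5′ to 3′ on the gene's strand, with the matched letters, or their reverse complement, in capitals.
Gzma, chr13:113101001-113101057, minus strand: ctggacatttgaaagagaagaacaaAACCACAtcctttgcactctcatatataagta
Gzmb, chr14:56262337-56262393, minus strand: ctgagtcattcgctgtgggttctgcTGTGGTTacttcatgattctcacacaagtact
Xcl1, chr1:164935719-164935772, minus strand: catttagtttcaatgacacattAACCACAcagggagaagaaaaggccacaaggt
Klrk1, chr6:129623962-129624018, minus strand: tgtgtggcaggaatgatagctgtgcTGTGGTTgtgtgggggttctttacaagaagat
Ncr1, chr7:4337514-4337570, plus strand: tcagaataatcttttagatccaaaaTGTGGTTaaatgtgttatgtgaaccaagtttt
Nkg7, chr7:43437099-43437137, plus strand: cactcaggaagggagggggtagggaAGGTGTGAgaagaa
The match began 34 bases before the start used for the window in Gzmb, 51 in Gzma, 129 in Klrk1, 176 in Ncr1 and 228 in Xcl1, and 14 in Nkg7. For Klrk1 that start lies inside the gene's span, which runs to 129623903, so the match is nearer to the end of the span.

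The transcription factors that set the type 1 program did not separate the cell types. Tbx21, which encodes T-bet, lay at 11.8, 33.0 and 78.8 CPM (lowest, median and highest of 7 libraries) in ILC2 and at 17.5, 61.7 and 94.2 CPM in the 8 ILC3 libraries. The ranges overlapped almost fully, and the log2 fold change of 0.64 ± 0.38 (SE) was not called (adjusted p = 0.243). Eomes, the related factor that marks mature NK cells, was near the floor of detection in both cell types, with 145 counts in all over the ILC2 libraries and 183 over the ILC3 libraries. Its level was 0 to 5.41 CPM in ILC2 and 0.50 to 1.67 CPM in ILC3, and it was not called (1.52 ± 0.98, adjusted p = 0.284), with a fitted sign opposite to that of the 2 means, 1.29 and 1.18 CPM.

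The type 1 cytokine itself ran against the receptors. Ifng (Entrez 15978; mm10 chromosome 10, 118441046 to 118445894), which encodes interferon-γ, was at 76.8 and 29.1 CPM in ILC2 (ZT4), 28.3 and 49.0 (ZT10), 26.8 (ZT16) and 9.29 and 18.0 (ZT23). In ILC3 it was at 0.37 and 10.5 CPM (ZT4), 2.63 and 3.25 (ZT10), 4.73 and 3.93 (ZT16) and 5.74 and 3.80 (ZT23). All ILC3 libraries but 1, replicate 2 of ZT4, were below the lowest ILC2 library. The log2 fold change was -2.76 ± 0.45 (adjusted p = 0.000649). Il12rb2, the signalling chain of the interleukin-12 receptor that induces Ifng, did not follow it: its median was 17.9 CPM in ILC2 (range 9.29 to 36.9) and 24.0 in ILC3 (8.74 to 37.8), and it was not called (0.12 ± 0.32, adjusted p = 0.835; the sign turned in 3 of 22 alternative analyses).

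Of the 6 genes of killing, 3 were higher in ILC3, 1 was lower and 2 were not called. Gzma (Entrez 14938; chromosome 13, 113093824 to 113100981), which encodes the trypsin-like granzyme A, was at 89.4 and 63.3 CPM in ILC2 (ZT4), 56.4 and 109 (ZT10), 74.0 (ZT16) and 44.4 and 112 (ZT23). The ILC3 libraries held 153 and 2238 CPM (ZT4), 946 and 2195 (ZT10), 1672 and 1791 (ZT16) and 2975 and 1314 (ZT23). Every ILC3 library was above every ILC2 library, although replicate 1 of ZT4 was close to the ILC2 range, and the log2 fold change was 4.38 ± 0.61 (adjusted p = 0.000219). Gzmb (Entrez 14939; chromosome 14, 56258836 to 56262334), the granzyme that activates caspases, was at 158 and 51.2 CPM in ILC2 (ZT4), 86.5 and 105 (ZT10), 70.7 (ZT16) and 30.5 and 87.0 (ZT23). In ILC3 it was at 409 and 1076 CPM (ZT4), 548 and 729.8 (ZT10), 597 and 646 (ZT16) and 1000.5 and 389 (ZT23). No library of one cell type reached the range of the other, and the log2 fold change was 3.07 ± 0.39 (adjusted p = 0.000111). RUNX letters lay upstream of both granzymes in the stretches shown above.

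Perforin went the other way. Prf1 (Entrez 18646; chromosome 10, 61297751 to 61304684) encodes the protein that lets granzymes enter the target cell. It was at 87.2 and 46.6 CPM in ILC2 (ZT4), 49.95 and 77.3 (ZT10), 52.0 (ZT16) and 56.0 and 67.2 (ZT23). The ILC3 libraries held 6.70 and 25.5 CPM (ZT4), 13.4 and 20.1 (ZT10), 16.4 and 16.2 (ZT16) and 27.0 and 11.5 (ZT23). Each ILC2 library was above each ILC3 library, and the log2 fold change was -1.82 ± 0.29 (adjusted p = 0.00055). Thus in ILC3 the 2 granzymes were high where perforin was low, and per kilobase of gene length Gzma averaged 1891 and Prf1 8.32 CPM in ILC3, against 89.3 and 30.3 in ILC2.

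The other killing genes divided. Ctsw, a cathepsin of cytotoxic granules, had a median of 58.6 CPM in ILC2 (38.3 to 86.4) and 235 in ILC3 (67.5 to 337) and was higher in ILC3 (1.89 ± 0.36, adjusted p = 0.00186). Nkg7, a granule membrane protein of killer cells, had medians of 221 CPM in ILC2 (132 to 378) and 253 in ILC3 (37.8 to 459), a log2 fold change of 0.06 ± 0.41 whose sign turned in 8 of 22 alternative analyses (adjusted p = 0.958). Fasl, the death ligand, had medians of 24.0 (9.54 to 45.7) and 31.2 CPM (7.26 to 66.0) and was not called (0.50 ± 0.41, adjusted p = 0.402). The ranges of all 3 genes overlapped. For Ctsw the overlap came from 1 library, ILC3 ZT4 replicate 1, and the next lowest ILC3 level, 135 CPM, stood above the ILC2 range.

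The chemokines separated by gene. Ccl5 (Entrez 20304; chromosome 11, 83525778 to 83530518), a chemoattractant of T cells and monocytes, was at 172 and 75.6 CPM in ILC2 (ZT4), 101 and 227 (ZT10), 147 (ZT16) and 50.6 and 117 (ZT23). In ILC3 its levels were 87.4 and 896 CPM (ZT4), 514 and 1085 (ZT10), 955 and 907 (ZT16) and 1610.2 and 478 (ZT23). Of the 8 ILC3 libraries, 7 were above the ILC2 range and replicate 1 of ZT4 was within it, and the log2 fold change was 2.64 ± 0.53 (adjusted p = 0.00273). Xcl1 (Entrez 16963; chromosome 1, 164931644 to 164935522), the lymphotactin that draws XCR1-bearing dendritic cells, was at 21.9 and 10.96 CPM in ILC2 (ZT4), 8.201 and 16.0 (ZT10), 6.15 (ZT16) and 4.35 and 5.97 (ZT23). It was at 14.7 and 109.5 CPM in ILC3 (ZT4), 55.5 and 128 (ZT10), 77.0 and 123 (ZT16) and 243 and 74.5 (ZT23). The same ILC3 library was the only one within the ILC2 range, and the log2 fold change was 3.44 ± 0.50 (adjusted p = 0.000289).

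Ccl3 and Ccl4, inflammatory chemokine genes that lie next to each other, were not called. Ccl3 had medians of 22.9 CPM in ILC2 (19.4 to 29.3) and 34.4 in ILC3 (17.1 to 48.3), a log2 fold change of 0.45 ± 0.18 (adjusted p = 0.096). Ccl4 had medians of 147 (69.0 to 169) and 78.4 CPM (36.3 to 167), with the opposite sign, -0.74 ± 0.30 (adjusted p = 0.0879). The spans of Ccl3 and Ccl4 overlap in the gene table, and the sources used here do not say whether the counting used strand, so reads in the shared stretch cannot be assigned with certainty. The same holds for Gzma with Cdc20b, Ctsw with Fibp, Il12rb2 with Serbp1 and Itga1 with Pelo.

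The 2 integrin chains of NK cells also parted. Itga1 (CD49a), the collagen receptor chain of tissue-resident type 1 cells, had a median of 10.2 CPM in ILC2 (5.67 to 11.9) and 67.4 in ILC3 (12.8 to 94.6), with no overlap (2.69 ± 0.41, adjusted p = 0.000419). Itga2 (CD49b), the chain that marks circulating NK cells, had medians of 7.30 (3.06 to 14.4) and 3.71 CPM (0.74 to 11.5) and was not called (-0.78 ± 0.52, adjusted p = 0.301).

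The 13 Klr genes lie on chromosome 6 within 1.78 megabases (128609227 to 130386874), and 10 of them were higher in ILC3. All 3 Klrb1 genes of the set, which encode receptors of the NK1.1 family, were higher. Outside the set, Klrb1f was higher (3.57 ± 0.33) and Klrb1 was not called (0.77 ± 0.42, adjusted p = 0.205 in edgeR). Klrb1b (Entrez 80782; 128813706 to 128826315), an inhibitory receptor, was at 116 and 104.5 CPM in ILC2 (ZT4), 63.6 and 92.4 (ZT10), 71.2 (ZT16) and 49.6 and 164 (ZT23). The ILC3 libraries held 945 and 522 CPM (ZT4), 852 and 728 (ZT10), 872 and 455 (ZT16) and 696 and 556 (ZT23). The groups stood well apart, and in contrast to Gzma the ZT4 replicate 1 library was the highest of ILC3 (log2 fold change 2.96 ± 0.30, adjusted p = 1.98e-05). Klrb1a had a median of 0.85 CPM in ILC2 (0.31 to 3.20) and 46.8 in ILC3 (19.5 to 67.4; 5.58 ± 0.46, adjusted p = 4.93e-06). Klrb1c, the gene of the NK1.1 antigen itself in strains that carry it, had medians of 6.17 (3.48 to 16.7) and 34.2 CPM (22.0 to 42.3; 2.35 ± 0.27, adjusted p = 4.71e-05).

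The CD94 and NKG2 genes were led by Klrd1 and Klrk1. Klrd1, which encodes CD94, the partner chain of the NKG2 receptors, had a median of 24.6 CPM in ILC2 (14.9 to 37.7) and 107 in ILC3 (56.8 to 204), without overlap (2.10 ± 0.26, adjusted p = 8.94e-05). Klrk1 (Entrez 27007; 129610323 to 129623903) encodes NKG2D, the activating receptor for stress-induced ligands. It was at 10.5 and 8.04 CPM in ILC2 (ZT4), 18.9 and 11.6 (ZT10), 12.7 (ZT16) and 10.1 and 21.5 (ZT23). In ILC3 it was at 163 and 67.8 CPM (ZT4), 117 and 69.1 (ZT10), 84.3 and 56.2 (ZT16) and 54.6 and 60.1 (ZT23). The cell types did not overlap, and again ZT4 replicate 1 was the highest ILC3 library (2.65 ± 0.28, adjusted p = 2.25e-05).

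The partners that CD94 pairs with were scarce. Klrc1 (NKG2A, inhibitory) had medians of 1.24 CPM in ILC2 (0.23 to 10.7) and 2.63 in ILC3 (2.08 to 4.28) and was not called (0.80 ± 0.57, adjusted p = 0.337; the sign turned in 2 of 22 alternative analyses). Klrc2 (NKG2C, activating) had 26 counts in all in ILC2 and 90 in ILC3, at most 0.66 and 0.91 CPM in a library, and was not called (3.01 ± 1.16, adjusted p = 0.0781). Klre1, whose product pairs with KLRI chains, was at 0 to 1.55 CPM in ILC2 and 0.37 to 9.32 CPM in ILC3 and was higher in ILC3 (3.81 ± 0.97, adjusted p = 0.012). Thus the shared chain Klrd1 was higher in ILC3 while neither of its NKG2 partners in the set was called.

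The 5 Klra genes of the set were close to absent from ILC2. They encode Ly49 receptors, lectin-like receptors that bind class I molecules. Outside the set, Klra4, Klra6, Klra9 and Klra10 had 0 counts in ILC2, but the family as a whole was not absent. Klra17 had 2646 counts there (25.3 to 47.7 CPM) and was lower in ILC3 (-2.52 ± 0.25). Klra2 had 665 counts in ILC2 and was not called. Klra5 (Entrez 16636; 129898988 to 129913237) had 8 counts in all over the ILC2 libraries, from both ZT10 libraries only, and 2763 in ILC3. It was at 3.53 and 18.6 CPM in ILC3 (ZT4), 9.19 and 22.9 (ZT10), 16.1 and 20.8 (ZT16) and 27.6 and 6.92 (ZT23), and the highest ILC2 library reached 0.99 CPM. The fitted log2 fold change was 9.47 ± 1.02 (adjusted p = 8.03e-05). Klra3 had 1 count in ILC2 and 239 in ILC3 (ratio of depth-scaled counts 120, exact 95% counting interval 21.3 to 4750; adjusted p = 0.00154), and Klra7 had 2 and 275 (ratio 68.9, interval 18.9 to 572; adjusted p = 0.00114). In ILC3 these 2 genes stayed low, at 0.756 to 3.004 CPM and 0.19 to 2.56 CPM, with no overlap with ILC2.

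Klra8 and Klra1 were at the limit of detection. Klra8, the activating Ly49H gene, had 0 counts in ILC2 and 64 in ILC3 (0 to 0.71 CPM). With the ILC2 group as a whole set at 3 counts, Klra8 was 10.7-fold higher in ILC3, and its exact 95% counting interval began at 8.45-fold. It was called at an adjusted p of 0.0324, and the call was lost in 10 of 21 alternative analyses, where the adjusted p rose to between 0.0520 and 1.000. Without ILC3 ZT23 replicate 1 alone it was 1.000. Klra1 had 11 and 95 counts, reached 0.61 CPM in ILC2 and 0.97 in ILC3, and missed the threshold (3.12 ± 1.05, adjusted p = 0.0501). Counting intervals and floors cover counting error only.

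Near-identical copies share reads, and this bears unequally on the receptors. Of all stretches of 50 bases in the longest GENCODE transcript, the share also found in the transcripts of another gene was 40.3% for Klrc1, mostly with Klrc2, 33.1% for Klra8, 30.1% for Klrc2 and 29% for Klrb1b, mostly with the model Gm44511. It was 21.5% for Klra3, 18.1% for Klrb1c, 14.7% for Klra7, 11% for Klrb1a, 3.15% for Klra1 and 0.732% for Klra5. Klrd1, Klre1 and Klrk1 shared none. Outside the Klr genes, Ifng shared 13.5% with the model Gm49751 and Itga1 5.5%. The level of Klra5 therefore rests almost wholly on sequence of its own. Those of Klrc1, Klra8, Klrc2, Klrb1b and Klra3 are uncertain, since the labels do not say how reads with several matches were counted. The same limit bears on Klrb1c, Klra7, Ifng and Klrb1a by their smaller shares.

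Among the receptors of the immunoglobulin type, Ncr1 and Cd160 were higher in ILC3. Ncr1 (Entrez 17086; chromosome 7, 4337715 to 4345184), which encodes NKp46, was at 1.53 and 1.71 CPM in ILC2 (ZT4), 0.99 and 1.76 (ZT10), 0.77 (ZT16) and 0.84 and 2.32 (ZT23). In ILC3 it was at 14.0 and 27.2 CPM (ZT4), 11.9 and 12.5 (ZT10), 28.5 and 11.7 (ZT16) and 7.73 and 11.5 (ZT23). No libraries overlapped, and the log2 fold change was 3.49 ± 0.38 (adjusted p = 3.06e-05). Cd160, a receptor for HVEM on NK cells and intestinal lymphocytes, had medians of 70.8 CPM in ILC2 (32.5 to 134) and 208 in ILC3 (37.4 to 331). It was called (1.25 ± 0.40, adjusted p = 0.0361), but the call was lost in 12 of 22 alternative analyses, where the adjusted p was 0.0554 to 0.0836. Cd226 (DNAM-1), a receptor for nectin-type ligands, had medians of 73.6 (29.6 to 96.6) and 68.1 CPM (33.9 to 94.5) and was not called (-0.14 ± 0.25, adjusted p = 0.722; the sign turned with library size as the only scaling and without ILC2 ZT23 replicate 2).

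The 2 adaptors were expressed in all libraries and only 1 was called. Fcer1g (Entrez 14127; chromosome 1, 171229572 to 171234349), the Fc receptor γ chain, was at 104 and 67.0 CPM in ILC2 (ZT4), 87.5 and 56.9 (ZT10), 78.8 (ZT16) and 122 and 82.2 (ZT23). It was at 330.4 and 381 CPM in ILC3 (ZT4), 308 and 475 (ZT10), 451 and 405 (ZT16) and 578 and 327 (ZT23). The groups did not overlap (2.27 ± 0.21, adjusted p = 1.03e-05). Tyrobp, which encodes DAP12, had medians of 143 CPM in ILC2 (97.9 to 218) and 232 in ILC3 (158 to 272) and missed the threshold (0.55 ± 0.20, adjusted p = 0.0651). Mast cells, basophils and macrophages also express both adaptors. All 10 mast cell and basophil markers were higher in ILC3, as were 8 of 16 macrophage and dendritic cell markers. The summed level of the 16 was 572 to 3225 CPM in ILC2 and 2354 to 6498 in ILC3. All 5 markers of plasmacytoid dendritic cells were lower in ILC3, with sums of 1699 to 4359 CPM in ILC2 and 245 to 425 in ILC3. The part of any of these cells in the adaptor levels was not tested.

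Per kilobase of gene length, the order of levels differed between the cell types. In ILC3 the set was led by Gzma (1891 CPM per kilobase), Ccl5 (1535), Fcer1g (618), Gzmb (476) and Tyrobp (397). In ILC2 it was led by Nkg7 (293 CPM per kilobase), Tyrobp (269), Ccl5 (239), Ccl4 (199) and Fcer1g (130). Nkg7 itself stood at 302 CPM per kilobase in ILC3. In ILC2, Nkg7 and Tyrobp differed by less than the larger of their SDs, as did Tyrobp from Ccl5 and Ccl5 from Ccl4. Per kilobase the SD over the ILC2 libraries was 101 for Nkg7, 82.6 for Tyrobp, 113 for Ccl5 and 63.0 for Ccl4. In ILC3, Gzma and Ccl5 differed by less than the larger of their SDs, as did Fcer1g from Gzmb and Gzmb from Tyrobp: per kilobase the SD over 8 libraries was 988 for Gzma and 862 for Ccl5, and 139 for Fcer1g, 178 for Gzmb and 72.1 for Tyrobp.

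**Figure D3:**
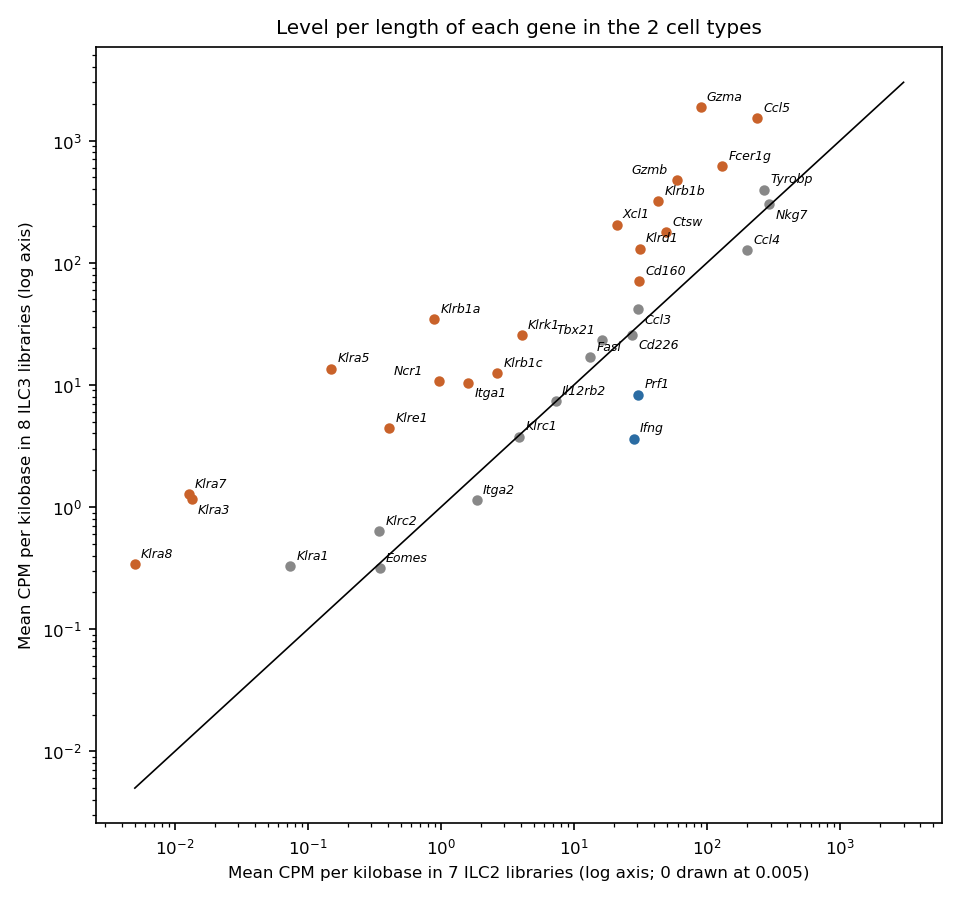
Mean level of each gene per kilobase of gene length in ILC2 (horizontal, 7 libraries) and ILC3 (vertical, 8 libraries), both on log axes in CPM per kilobase; the line marks equal levels. Orange genes were higher in ILC3, blue genes lower and grey genes not called: Klra5, Klra3 and Klra7 lie far above the line at low levels, Gzma at 1891 and Ccl5 at 1535 top the vertical axis, and Prf1 and Ifng lie below the line.

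Within ILC3, some libraries stood apart across many of the genes. In ILC3 ZT4 replicate 1, the ILC3 library with the fewest counts (5903163), 20 of the 34 genes were at their lowest of the 8 libraries, as were 31.8% of all genes. Also 20 of the 34 were below 0.5 of the median of the other 7 libraries, against 21.6% of all genes. Gzma was at 0.09 of that median, Ccl5 at 0.10, Xcl1 at 0.13 and Nkg7 at 0.14. By contrast Klrk1 was at 2.40, Klrc1 at 1.67, Klrb1b at 1.36, Tyrobp at 1.27 and Ncr1 at 1.18 of it. ILC3 ZT23 replicate 1 held the highest level of 22 of the 34 genes, against 10.2% of all genes. In ILC3 ZT23 replicate 2, the median ratio to the median of the other 7 libraries was 0.65 over the 34 genes and 0.95 over all genes. That library held the lowest level of 4 of the 34 (26.3% of all genes) and the highest of 1 (26.8%). Its sum of 12 epithelial markers, 3171 CPM, was the highest of ILC3, and their part was not tested.

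Many, but not all, T cell markers followed the same order of libraries. Of the 13 markers, 10 were lowest in ILC3 ZT4 replicate 1 (31.8% of all genes) and 9 were highest in ILC3 ZT23 replicate 1 (10.2%). Their sum was lowest in ILC3 ZT4 replicate 1 (362 CPM) and highest in ILC3 ZT23 replicate 1 (2769 CPM), while the other 6 ILC3 libraries lay from 821 to 1908. Cd3e, a chain of the T cell receptor complex, was at 28.6 CPM in the low library and 456 in the high one, and Cd8a was at 67.3 and 988. Cd4 did not follow this order, at 153 CPM in the low library and 68.5 to 113 in the other 7, and Cd28 was at 11.5 and 12.01 CPM in the low and the high library. The levels of the markers in ILC3 were uneven: Bcl11b was at 12.1 to 68.4 CPM, Cd8b1 at 0.56 to 2.93 and Cd5 at 0.19 to 2.92. In ILC2 the same genes were at 58.5 to 181, 40.5 to 131 and 14.4 to 60.5 CPM. Of the 13 markers, 6 were lower and 5 higher in ILC3 than in ILC2. The sum of the 12 ILC3 markers ran the other way, at 4862 CPM in ZT4 replicate 1 and 1904 to 3653 in the other 7. The part of T cells, or of any other cell, in these levels was not tested.

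**Figure D4:**
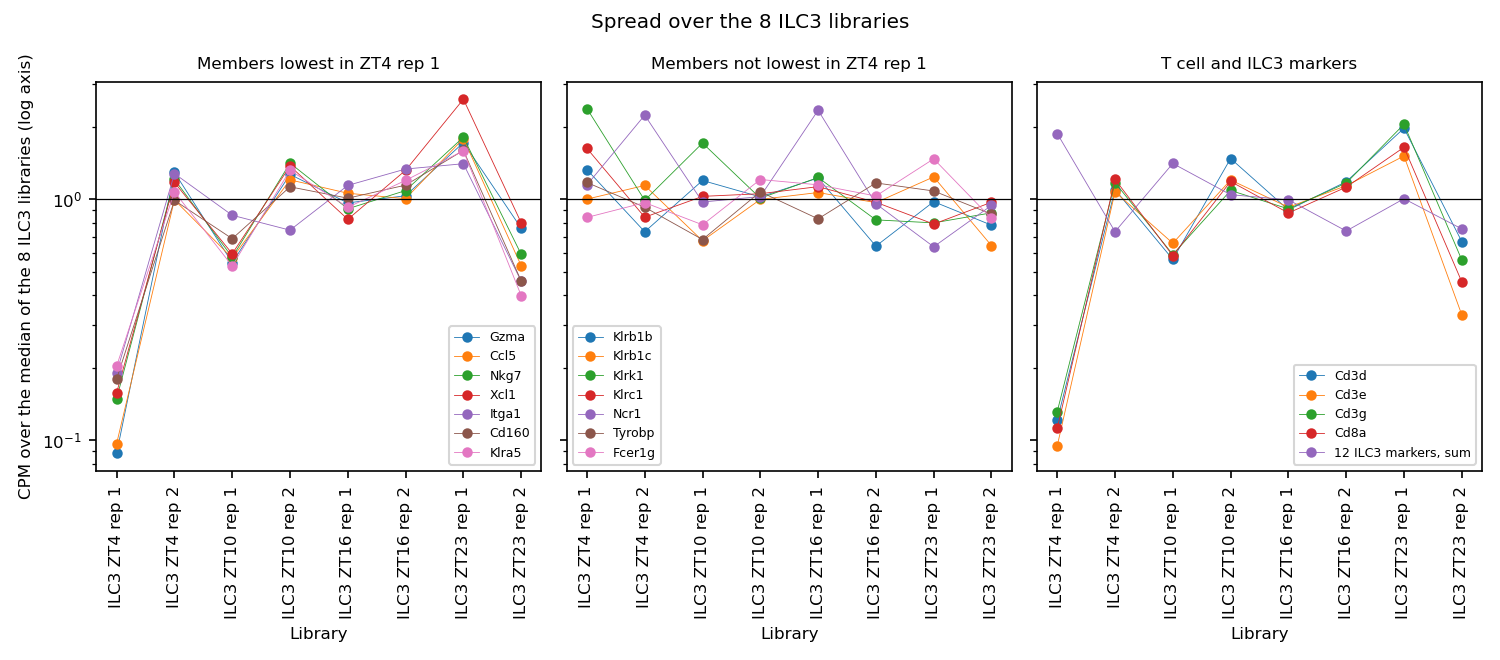
Levels in the 8 ILC3 libraries (horizontal), each divided by the gene's median over those libraries (vertical, log axis); each colour is a gene or marker sum and thin lines only join its points. Gzma, Ccl5, Nkg7, Xcl1, Itga1, Cd160 and Klra5 are low in ZT4 replicate 1 and high in ZT23 replicate 1 (left), as are Cd3d, Cd3e, Cd3g and Cd8a (right), while Klrb1b, Klrc1, Klrk1, Ncr1 and Tyrobp are not low in ZT4 replicate 1 (middle) and the ILC3 marker sum is highest there.

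In ILC2, ZT23 replicate 1 held the lowest level of 13 of the 34 genes, against 12.6% of all genes. Tbx21 was at 0.31 of the median of the other 6 ILC2 libraries there, Ifng at 0.32, Gzmb at 0.35 and Ccl5 at 0.38, while Tyrobp (1.45), Fcer1g (1.52) and Klrd1 (1.59) were above it. That library also had the highest plasma and B cell marker sum of ILC2 (192618 CPM) and the lowest ILC2 marker sum (1924 CPM), and their part was not tested.

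Most cell type calls held when some of these libraries were left out. Without ILC3 ZT4 replicate 1, ILC3 ZT23 replicate 1 and ILC2 ZT23 replicate 1, a choice made after seeing the data, 18 of the 34 were higher in ILC3 and 2 lower, against 16% and 13.6% of all genes. The log2 fold change was then 4.29 ± 0.30 for Gzma, 2.84 ± 0.28 for Gzmb, 2.44 ± 0.32 for Ccl5, 3.30 ± 0.33 for Xcl1, -2.74 ± 0.30 for Ifng and -1.90 ± 0.22 for Prf1. Klra8 was the 1 call lost. When only ILC3 ZT4 replicate 1 was left out, the libraries of 17 of the 34 did not overlap with ILC3 higher, against 7.45% of all genes; Ctsw, Ccl5, Xcl1 and Klre1 joined the 13. Prf1 stayed the 1 gene with ILC2 higher, against 6.5% of all genes.

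No gene of the set was called over time of day. In edgeR's F-test over the 4 times, 0 of the 34 passed an adjusted p of 0.05 in ILC3 and 0 in ILC2, as 0% of all genes did in each, and DESeq2 called 0 of the 34 as well. At an unadjusted p under 0.05 there were 0 of the 34 in ILC3 (4.36% of all genes) and 2 in ILC2 (3.36%), Klrb1c and Klra5; DESeq2 had 1 (7.28% of all genes) and 5 (5.1%). The smallest unadjusted p in ILC3 was 0.0683, for Ccl3. The test of a different time course in the 2 cell types called 0 of the 34 (0% of all genes), with 1 at an unadjusted p under 0.05, Klra1 (2% of all genes; DESeq2 had 3, and 3.06% of all genes).

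The mean of ZT16 and ZT23 was also set against the mean of ZT4 and ZT10, times that by convention fall in the dark and the light phase. Here 0 of the 34 were called in ILC3 and 0 in ILC2 (0% of all genes in each). At an unadjusted p under 0.05 there were 2 of the 34 in ILC3 (5.12% of all genes), Ccl3 (0.54 ± 0.24) and Klrk1 (-0.70 ± 0.32), and 2 in ILC2 (3.9%), Eomes and Klrc1, both at low counts; DESeq2 had 3 (5.76% of all genes) and 5 (4.76%). In ILC3, 25 of the 34 had a positive difference and 9 a negative one, with a median of 0.23 on the log2 scale, against 0 over all genes. Single libraries weigh on this median. The median ratio of the 34 genes to the median of the other ILC3 libraries was 0.38 in ZT4 replicate 1. It was 1.59 in ZT23 replicate 1 but 0.65 in ZT23 replicate 2. In ILC2, 10 were positive and 23 negative, with a median of -0.21, against 0.00 over all genes. Single libraries weigh on the ILC2 median too. The median ratio to the median of the other ILC2 libraries, over the 29 genes with a ratio, was 1.38 in ZT4 replicate 1. It was 0.50 in ZT23 replicate 1. Over all genes these ratios were 0.93 and 1.00. Klra8, with 0 counts in ILC2, had no difference there.

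Replicates of 1 time differed as much as times did. Ifng in ILC2 averaged 53.0 CPM at ZT4, 38.7 at ZT10, 26.8 at ZT16 and 13.7 at ZT23, but the 2 libraries of ZT4 lay at 76.8 and 29.1 (edgeR's F-test over time, fitted across all genes, gave an adjusted p of 1). Klrk1 in ILC3 averaged 115 CPM at ZT4 and 57.4 at ZT23, with ZT4 libraries at 163 and 67.8. Gzma in ILC3 averaged 1196 CPM at ZT4 and 2144 at ZT23, with libraries at 153 and 2238 in the former and 2975 and 1314 in the latter, and edgeR called neither gene. With 2 libraries a time and this spread, differences by time were not detectable for these genes.

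**Figure D5:**
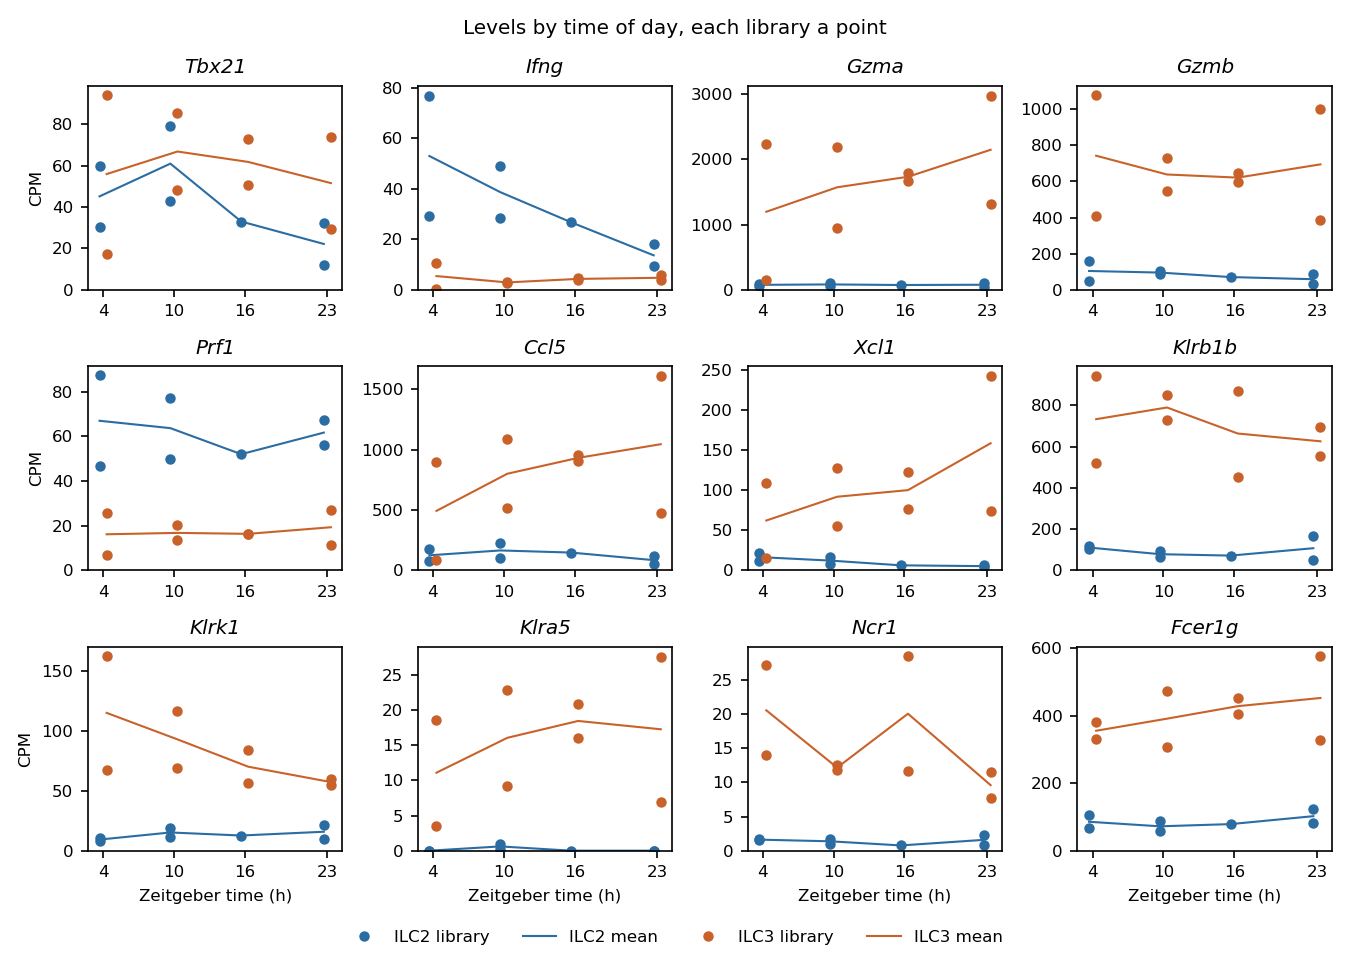
CPM of 12 genes against zeitgeber time (horizontal, hours), with a point for each ILC2 (blue) and ILC3 (orange) library and lines through the means of each time. The points of 1 time are often as far apart as the times are, as for Gzma in ILC3 at ZT4 (153 and 2238 CPM), while the cell types separate at every time for Gzmb, Prf1, Klrb1b, Klrk1, Klra5, Ncr1 and Fcer1g.

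Other genes of the same pathways, from lists drawn up by function, went in both directions. The counts stand beside 15.1% of all genes tested higher in ILC3 and 12% lower, with a median log2 fold change of 0.11. Of 20 genes of type 1 cytokine signalling, 6 were higher in ILC3, 5 lower and 9 not called, with a median log2 fold change of -0.01. The interleukin-18 receptor chains Il18r1 (2.77 ± 0.42) and Il18rap (1.79 ± 0.30) were higher, and the interleukin-12 receptor chain Il12rb1 (-1.17 ± 0.20) and the interferon-induced factor Irf1 (-0.94 ± 0.16) were lower. Of 19 transcription factors of type 1 and NK cells, 4 were higher, 4 lower and 11 not called (median -0.12). Tcf7, a factor of early lymphoid cells, was higher (2.03 ± 0.25), and Runx2 (-1.93 ± 0.20), Prdm1 (-1.997 ± 0.24) and Klf2 (-1.65 ± 0.25) were lower. Runx3, the family member best known in cytotoxic lymphocytes, was not called (-0.12 ± 0.14, adjusted p = 0.585).

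Among genes of granules and among further NK receptors the median was above the 0.11 of all genes tested. Here too, 15.1% of all genes tested were higher in ILC3 and 12% lower. Of 16 genes of granule loading, release and inhibition, 8 were higher in ILC3, 1 lower and 7 not called (median 0.72). Higher were Ctsc, the peptidase that activates granzymes (1.02 ± 0.15), the granzyme inhibitor relative Serpinb6b (1.45 ± 0.22), Gzmc (3.59 ± 0.54) and the release factor Stx11 (1.27 ± 0.21). Of 25 further NK receptors and surface proteins, 12 were higher, 5 lower and 8 not called (median 1.00). The inhibitory receptor Klrg1, which marks ILC2 as well as mature NK cells, was lower in ILC3 (-5.81 ± 0.27), and Cd244a (3.33 ± 0.24), Klri1 (4.51 ± 0.38) and Klrb1f (3.57 ± 0.33) were higher. Of 14 signalling genes downstream of NK receptors, 3 were higher, 1 lower and 10 not called (median -0.01); Vav3 (1.79 ± 0.23), Plcg2 (1.03 ± 0.22) and the kinase Lck (1.10 ± 0.36) were higher and the adaptor Lat (-1.32 ± 0.22) was lower.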

How the data were processed

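Each library has a file, deposited by the authors, that lists Entrez identifiers, gene lengths and unnormalized read counts. The counts came from featureCounts on mm10, per the submitters' processing notes, and RNA from an RNeasy Micro kit went into TruSeq libraries, per the labels' protocols. The aligner, the strand setting and the handling of multiply mapped reads are not stated there.

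Genes were kept by edgeR's filterByExpr (minimum count 10), scaled with TMM factors and fitted with edgeR 4.0.16 in R 4.3.3 by quasi-likelihood on 8 group means over 15 libraries (7 residual degrees of freedom). Benjamini-Hochberg adjustment ran over all 15339 genes tested, with a threshold of 0.05. Errors after ± are standard errors of log2 fold changes. CPM used TMM-scaled totals. Ratios of counts with exact 95% intervals, and a floor of 3 counts, were used where ILC2 held few or 0 counts. Alternatives were DESeq2 1.42.0, RLE factors, library size alone, no filter, a minimum of 30, fits within 1 cell type, a replicate block and each library left out. The fit was tested on simulated counts.

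The members, the lists (238 symbols, 236 found) and the rule for named genes were chosen with earlier results of these data known. Members called for cell type or averaging at least 10 CPM were given by library or by range, and up to 4 genes with the smallest p were named per pathway list; Runx3 was named after its value was seen. Positions and promoters came from RefSeq GRCm38.p6 and shared 50-base stretches from GENCODE M21. Replicates of a group differed by more than sampling noise (chi-square per degree of freedom 22.0 to 229).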

Additional observations from a re-analysis of the deposited data

Results flagged for a closer look

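Among 61 sets of values (1 gene in the 7 ILC2 or the 8 ILC3 libraries, with at least 50 counts in all), 6 had a highest library far from the next by Dixon's criterion, and chance gives about 1 in 20. In ILC2, Eomes was at 5.41 CPM in ZT23 replicate 2 (next 1.70) and Klrb1a at 3.20 in the same library (next 1.54). Klrb1c was at 16.7 CPM in ILC2 ZT4 replicate 1 (next 7.53) and Klrc1 at 10.7 in the same library (next 3.32). In ILC3, Klrc1 was at 4.28 CPM in ZT4 replicate 1 (next 2.97), and Klra3 at 3.004 in ZT23 replicate 1 (next 1.67).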

How the results depend on the processing

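Under all alternatives run, between 19 and 24 of the 34 genes were called by cell type (17 to 22 higher in ILC3, 2 or 3 lower), with 21 in the analysis reported, and no call turned its direction. With library size as the only scaling 24 were called, and with DESeq2 22. That scaling moved the median log2 fold change of all genes from 0.11 to 0.26 and the split of calls from 2318 higher and 1839 lower to 2981 and 1315. Only the calls of Cd160 and Klra8 were lost, and calls were gained for Tyrobp in 6 alternatives, Klra1 in 5, Ccl4 in 4, Ccl3 in 2, and Eomes and Klrc1 in 1 each. Comparisons by time called 0 of the 34 under every alternative; without ILC3 ZT4 replicate 2, which leaves replicate 1 alone at that time, 13 of the 34 reached an unadjusted p under 0.05 for the dark against the light times in ILC3, as did 15.2% of all genes.

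The fit with a replicate block called 20 (18 higher, 2 lower). No consistent pairing of the samples by replicate number was seen. Correlations of replicate differences between groups had a median of 0.03 and ran from -0.16 to 0.45, and 6 of 21 were over 0.1. These values cannot exclude a pairing among some of the groups. Depth limits Eomes, Klrc2, Klra1 and Klra8, and the few libraries at each time limit every comparison by time.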
